A study of Mus musculus with 10 samples.

Results

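The replication-dependent histone genes were followed in CD4-bead-sorted spleen cells of NOD and B10 mice, before and after stimulation. Members were taken by symbol alone: every gene named H1f, H2ac, H2bc, H3c or H4c with a number, on a probe set that the platform annotation gives to 1 symbol, with the probe set of the highest mean standing for a gene. The rule found 30 of 19938 genes tested. They are 8 linker histone H1 genes (H1f1, H1f2, H1f3, H1f5, H1f6, H1f7, H1f8 and H1f10), 4 H2A genes (H2ac1, H2ac4, H2ac8 and H2ac15), 9 H2B genes (H2bc1, H2bc3, H2bc4, H2bc8, H2bc9, H2bc14, H2bc18, H2bc21 and H2bc22), 3 H3 genes (H3c4, H3c7 and H3c15) and 6 H4 genes (H4c3, H4c4, H4c6, H4c8, H4c9 and H4c14). RefSeq places 23 of them on chromosome 13, 4 on chromosome 3 (H2bc18, H2bc21, H3c15 and H4c14), 2 on chromosome 6 (H1f8 and H1f10) and 1 on chromosome 15 (H1f7).

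The mice were females of 8 weeks with the genotypes NODk and B10Br. NOD is an inbred strain known for autoimmune diabetes, and B10 is the C57BL/10 strain family. Diabetes in the NODk mice used was not examined here. The 4 groups were stimulated NOD cells (T1, 2 arrays), unstimulated NOD cells (T0, 3 arrays), stimulated B10 cells (T1, 2 arrays) and unstimulated B10 cells (T0, 3 arrays). T1 cells had 4 hours with the phorbol ester PMA at 10 ng/ml and the calcium ionophore ionomycin at 1 uM, which together bypass the T cell receptor. The labels name T0 a basal state, while the treatment protocol can be read as 4 hours of culture without the agents. Replicates are labelled biological, without the animal each came from, so p-values measure the spread between these samples.

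Histones package DNA: H2A, H2B, H3 and H4 form the core of the nucleosome and H1 binds the linker DNA between cores. Most members lie in clusters, are transcribed in S phase while DNA is copied, and give mRNAs that end in a stem-loop rather than a poly(A) tail, so their RNA is high in dividing cells and low in resting ones. The symbol rule also takes in genes that do not follow this pattern: H1f6, H1f7, H2ac1 and H2bc1 are known from testis, H1f8 from the oocyte, H1f10 is expressed independently of replication, and H2bc21 is known as a replication-independent H2B of mouse olfactory neurons.

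The promoters of 26 members were in the RefSeq table (build GRCm38.p6, 250 bases before to 50 after each gene's start); H2bc4, H2bc21, H3c7 and H4c14 had no entry. Windows are printed for the genes with the strain differences given below: H1f2, H2bc14, H2bc18 and H4c9 were called in both states, H1f1 had the largest difference at T0, and H3c15 was the H3 gene called. Capitals mark matches on either strand to the octamer ATTTGCAT, the CCAAT box, TATAAA, or AAACACA, a motif known from H1 promoters.
H1f1, chr13:23763418-23763717, plus strand: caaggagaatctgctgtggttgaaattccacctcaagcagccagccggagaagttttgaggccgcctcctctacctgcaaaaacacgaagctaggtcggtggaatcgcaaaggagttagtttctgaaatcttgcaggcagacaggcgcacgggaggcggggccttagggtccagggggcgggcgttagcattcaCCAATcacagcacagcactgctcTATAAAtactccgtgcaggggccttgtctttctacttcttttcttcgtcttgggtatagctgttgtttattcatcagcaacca
H1f2, chr13:23738557-23738856, plus strand: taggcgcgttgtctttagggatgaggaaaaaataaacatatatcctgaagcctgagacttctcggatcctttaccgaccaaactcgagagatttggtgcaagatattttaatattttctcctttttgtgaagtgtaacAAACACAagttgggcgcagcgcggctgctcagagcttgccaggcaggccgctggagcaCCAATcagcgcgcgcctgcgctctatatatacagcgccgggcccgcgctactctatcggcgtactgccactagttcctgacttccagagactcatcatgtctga
H2bc14, chr13:21721794-21722093, plus strand: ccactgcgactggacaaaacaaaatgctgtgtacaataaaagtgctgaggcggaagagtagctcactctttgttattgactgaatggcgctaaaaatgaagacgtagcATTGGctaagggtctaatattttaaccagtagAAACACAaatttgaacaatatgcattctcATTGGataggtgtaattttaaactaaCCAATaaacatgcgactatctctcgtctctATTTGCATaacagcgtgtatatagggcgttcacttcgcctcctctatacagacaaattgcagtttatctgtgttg
H2bc18, chr3:96269450-96269749, plus strand: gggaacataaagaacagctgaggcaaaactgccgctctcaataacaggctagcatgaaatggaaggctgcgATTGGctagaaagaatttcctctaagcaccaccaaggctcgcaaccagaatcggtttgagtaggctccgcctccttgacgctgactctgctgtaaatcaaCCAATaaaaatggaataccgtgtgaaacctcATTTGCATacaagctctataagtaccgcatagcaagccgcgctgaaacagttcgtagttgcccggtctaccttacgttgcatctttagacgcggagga
H3c15, chr3:96239078-96239377, minus strand: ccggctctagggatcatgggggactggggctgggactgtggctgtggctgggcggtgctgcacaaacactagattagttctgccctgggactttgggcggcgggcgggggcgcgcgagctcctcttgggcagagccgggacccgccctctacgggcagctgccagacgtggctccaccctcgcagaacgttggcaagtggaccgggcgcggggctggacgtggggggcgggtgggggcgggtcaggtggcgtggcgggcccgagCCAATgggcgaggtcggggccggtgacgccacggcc
H4c9, chr13:22041313-22041612, minus strand: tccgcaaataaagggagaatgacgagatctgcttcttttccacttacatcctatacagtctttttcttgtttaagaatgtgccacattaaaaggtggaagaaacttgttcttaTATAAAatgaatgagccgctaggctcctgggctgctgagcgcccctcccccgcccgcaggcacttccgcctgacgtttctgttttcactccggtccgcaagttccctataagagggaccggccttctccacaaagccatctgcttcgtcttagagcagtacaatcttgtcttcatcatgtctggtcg
The octamer, the known element of H2B promoters, was found in 8 of 26 member promoters (30.8%), against 1.74% of 32851 promoters. It was in 3 of 4 H2A and 5 of 7 H2B windows, and in none of the 8 H1, 2 H3 and 5 H4 windows. The windows of H2ac8 and H2bc8 overlap, as do those of H2ac1 and H2bc1, and each pair shares 1 octamer, so the 8 matches are 6 distinct sites. Matches to the other motifs in these overlaps are likewise counted for both genes. CCAAT was in 21 of 26 (80.8%) against 37.4% of all promoters, TATAAA in 15 of 26 (57.7%) against 13.6%, and AAACACA in 8 of 26 (30.8%) against 7.18%. No match to one motif overlapped a match to another in the 26 windows. H2ac8 and H2bc8 lie head to head with 180 bases between their starts, and H2bc1 and H2ac1 with 281 bases.

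The arrays gave log2 intensities made by the authors, with array medians between 6.18 and 6.23. Arrays of one group correlated over the probe sets with Pearson's r of 0.985 to 0.993, and arrays of different groups with 0.943 to 0.984. As a scale for genes that spleen cells are not known to express, 1027 olfactory receptor genes had a median of 3.95 and a 95th percentile of 5.67. The mean of 22 of 30 members (73.3%) lay above that percentile, against 63.5% of all genes. The 8 others were H1f3, H1f6, H1f8, H2ac8, H2bc1, H2bc21, H3c7 and H3c15, whose differences may be understated by the array's background. The number of arrays limits the precision.

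**Figure D1:**
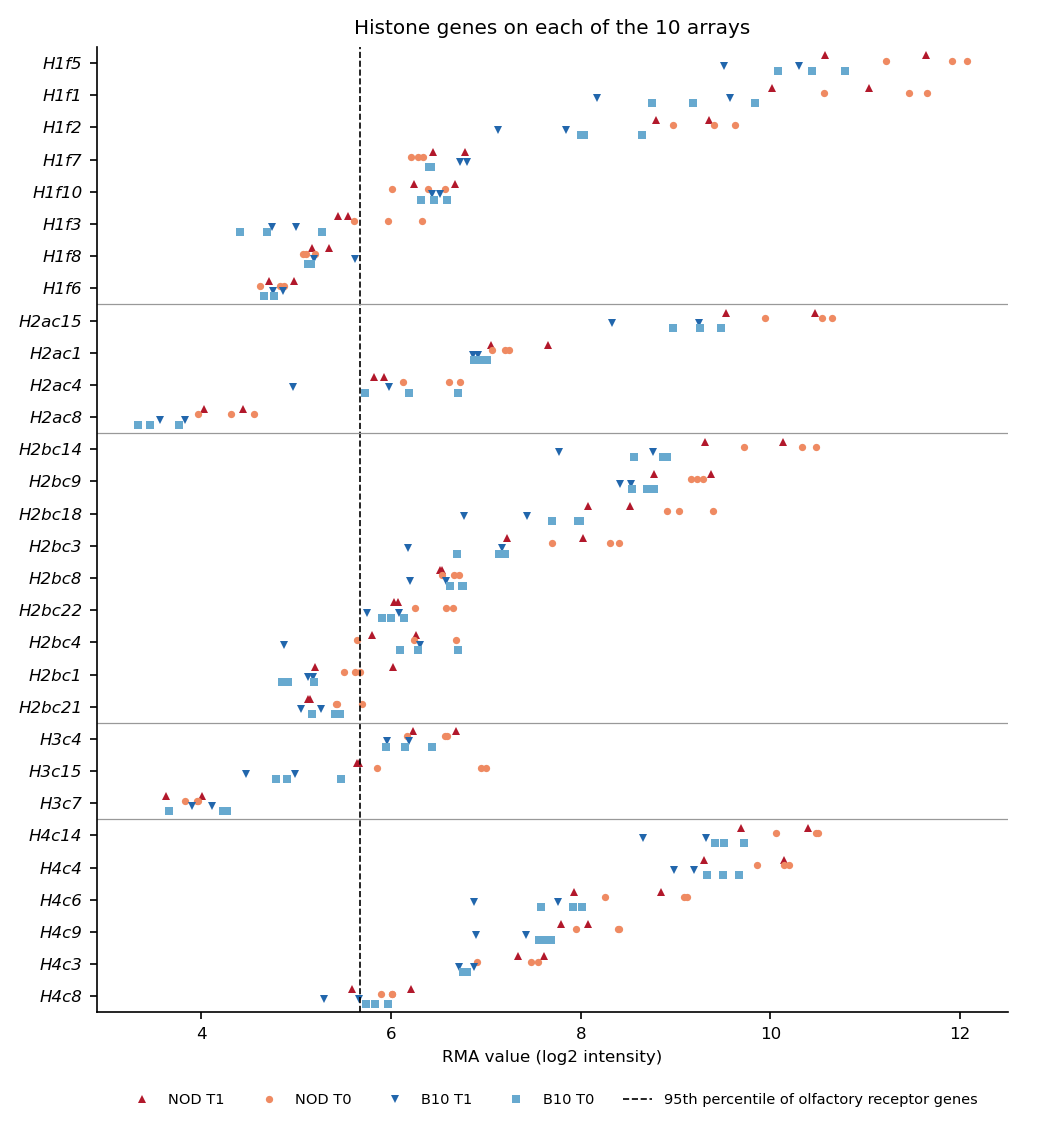
RMA value (log2 intensity, horizontal axis) of each histone gene (rows, grouped as H1, H2A, H2B, H3 and H4) on each of the 10 arrays, 1 point per array, with the 95th percentile of the olfactory receptor genes (5.67) as a dashed line. In H1f1, H1f5, H2bc14 and H2bc18 the NOD points of each state lie above the B10 points of that state.

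In unstimulated cells, histone genes were higher in NOD than in B10. limma's test called 14 of 30 higher and 0 lower at an adjusted p under 0.05, where 3.44% of all genes were called higher and 2.35% lower. No member passed at an unadjusted p under 0.05 in the lower direction, while 18 did in the higher one. Of all 19938 genes, 1429 passed in the lower direction and 1721 in the higher one. The median difference of the members was 0.56 on the log2 scale, against -0.01 over all genes. Differences were positive in 24 of 30 members and in 9031 of 19938 genes. All 3 NOD arrays lay above all 3 B10 arrays in 19 of 30 members, against 11.1% of all genes.

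Among the H1 linker histones, 4 of 8 rose, against 3.44% of all genes. H1f1 had log2 values of 11.46, 10.57 and 11.66 in NOD T0 cells, against 9.19, 8.75 and 9.83 in B10 T0 cells, a difference of 1.97 ± 0.40 (SE, adjusted p = 0.0106) or 3.92-fold. The lowest NOD value lay above the highest B10 value. H1f5 had 11.92, 11.22 and 12.07 in NOD T0 cells, against 10.43, 10.08 and 10.78 in B10 T0 cells, a difference of 1.30 ± 0.30 (adjusted p = 0.0217). H1f2 had 9.41, 8.97 and 9.62 in NOD T0 cells, against 8.00, 8.03 and 8.65 in B10 T0 cells, a difference of 1.11 ± 0.23 (adjusted p = 0.0142). H1f3 also separated the strains without overlap, with 5.96, 5.61 and 6.32 in NOD T0 cells, against 4.69, 4.40 and 5.27 in B10 T0 cells (1.18 ± 0.21, adjusted p = 0.00553), the B10 values again under 5.67. The testis gene H1f6, the oocyte gene H1f8, H1f7 and H1f10 were not called, with differences between -0.13 and 0.08.

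Among the core histones of the H2A and H2B families, H2ac15, H2ac8 and 5 of 9 H2B genes rose, against 3.44% of all genes. H2bc18 had 9.40, 8.91 and 9.03 in NOD T0 cells, against 7.99, 7.69 and 7.97 in B10 T0 cells, a difference of 1.23 ± 0.18 (adjusted p = 0.00194) or 2.35-fold. H2bc14 had 10.48, 9.73 and 10.33 in NOD T0 cells, against 8.86, 8.57 and 8.91 in B10 T0 cells (1.40 ± 0.27, adjusted p = 0.00842). The NOD arrays lay above the B10 arrays in both genes. H2bc3 (1.13 ± 0.27, adjusted p = 0.0295), H2bc9 (0.55 ± 0.14, adjusted p = 0.0307) and H2bc22 (0.48 ± 0.12, adjusted p = 0.0396) differed by less. H2ac15 had 10.55, 9.95 and 10.65 in NOD T0 cells, against 9.26, 8.98 and 9.48 in B10 T0 cells (1.14 ± 0.27, adjusted p = 0.0275). H2ac8 rose by 0.76 ± 0.16 (adjusted p = 0.0158) at values between 3.97 and 4.56 in NOD T0 cells, against 3.33 to 3.76 in B10 T0 cells, below the 95th percentile of the olfactory receptor genes. Its head-to-head partner H2bc8 had a difference of -0.07 (adjusted p = 0.853), with overlapping arrays. In the other such pair, H2bc1 had 0.62 ± 0.17 (adjusted p = 0.0531) and H2ac1 had 0.23 ± 0.13 (adjusted p = 0.464).

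Of the H3 and H4 genes, which supply the central tetramer of the nucleosome, 1 of 3 and 2 of 6 rose. Of all genes, 3.44% were called higher. H3c15 had 6.999, 5.85 and 6.95 in NOD T0 cells, against 4.79, 4.90 and 5.47 in B10 T0 cells, a difference of 1.54 ± 0.27 (adjusted p = 0.00556). All 3 B10 values lay under the olfactory percentile of 5.67, so the size may be understated. The NOD array of replicate 2 was more than 1 log2 unit under the others of its group and still above every B10 array. H4c14 had 10.48, 10.06 and 10.50 in NOD T0 cells, against 9.72, 9.42 and 9.51 in B10 T0 cells (0.80 ± 0.20, adjusted p = 0.0362). H4c9 had 8.41, 7.95 and 8.40 in NOD T0 cells, against 7.56, 7.61 and 7.68 in B10 T0 cells (0.64 ± 0.15, adjusted p = 0.0281). H4c4 had 10.20, 9.86 and 10.14 in NOD T0 cells, against 9.50, 9.33 and 9.67 in B10 T0 cells, and did not pass the test (0.57 ± 0.18, adjusted p = 0.106). All 6 H4 differences were positive, between 0.13 and 0.98. In 5 of 6 H4 genes every NOD array lay above every B10 array, against 11.1% of all genes.

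Single arrays moved many of these genes together, so the 14 calls are not 14 separate observations. The calls with 1 array left out are given below without the share of all genes called in the same fit. A changed number therefore cannot be read as particular to histone genes. Within NOD T0, the array of replicate 2 was the lowest of 3 in 22 of 30 members, against 33.2% of all genes. Within B10 T0, that of replicate 2 was the lowest in 21 (32.8% of all genes) and that of replicate 3 the highest in 20 (35.0%). Leaving out 1 array at a time gave 3 calls without NOD T0 replicate 1, 4 without NOD T0 replicate 3, 4 without B10 T0 replicate 1, 4 without B10 T0 replicate 2, and 12 to 17 without each of the others. H2bc18, H3c15 and H1f3 were called in all 10 omissions, with differences of 1.09 to 1.33, 1.34 to 1.92 and 0.98 to 1.42. H2bc14 was called in 9 of 10.

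**Figure D2:**
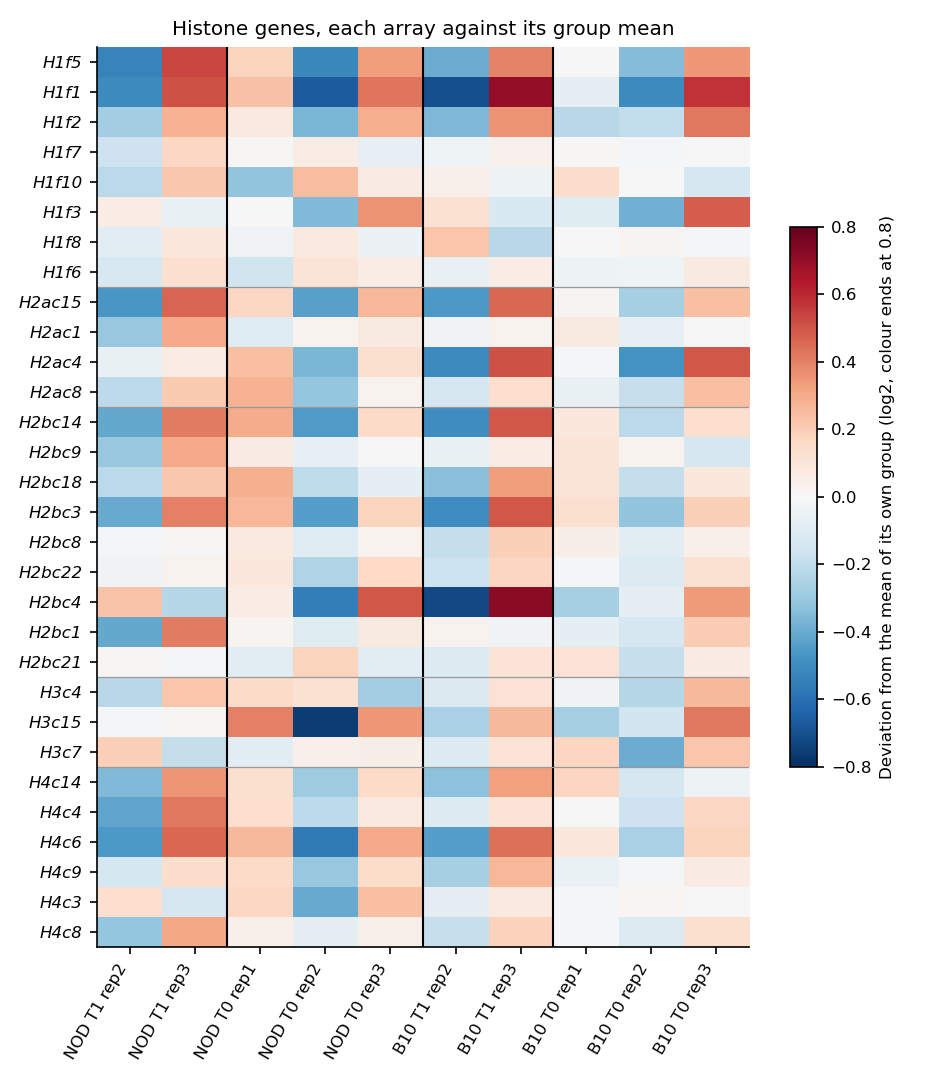
Deviation of each array (columns) from the mean of its own group for each histone gene (rows), on the log2 scale, as colour from -0.8 (blue) to 0.8 (red). The array of replicate 2 is blue for most genes in each group. It was the lower of 2 in 25 of 30 members in NOD T1 (54.9% of all genes) and 26 in B10 T1 (48.8%), and the lowest of 3 in 22 in NOD T0 (33.2%) and 21 in B10 T0 (32.8%).

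Markers of cycling and of erythroid cells moved with the histone genes across arrays and strains. The mean of the 30 histone genes was 7.56, 7.23 and 7.59 in NOD T0 cells, against 6.85, 6.68 and 7.02 in B10 T0 cells. The mean of 6 cycling cell markers was 8.57, 7.92 and 8.81 in NOD T0 cells, against 7.31, 7.22 and 7.70 in B10 T0 cells. Of these 6, all were positive and 2 rose, namely Mki67, which marks cells in cycle (1.85 ± 0.47, adjusted p = 0.0371), and Cdk1, the mitotic kinase (1.03 ± 0.23, adjusted p = 0.0174). The mean of 5 erythroid markers was 10.12, 9.81 and 10.38 in NOD T0 cells, against 8.12, 7.52 and 9.12 in B10 T0 cells. All 5 erythroid markers rose: Car2 by 2.61, the haem synthesis enzyme Alas2 by 2.38, the transferrin receptor Tfrc by 1.46, the transcription factor Klf1 by 1.44 and the erythropoietin receptor Epor by 1.34. In 6 CD4 T cell markers the mean was 10.66, 10.72 and 10.60 in NOD T0 cells, against 10.78, 10.82 and 10.77 in B10 T0 cells. Monocyte markers rose in 3 of 6, neutrophil markers in 3 of 7 and plasma cell markers in 2 of 5.

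The histone mean put the arrays of each group in the same order as the cycling and erythroid means in 4 of 4 groups. The S phase, monocyte, neutrophil and histone variant means gave that order in 3 of 4, the chaperones in 2, the B cell and plasma cell markers in 1, and the CD4 T cell markers and mRNA processing genes in 0. Each T1 group has only 2 arrays, so a match there says little. With the mean of the cycling markers as a covariate, chosen after seeing the data, the NOD to B10 difference at T0 was called in 0 of 30 members by limma (6 at an unadjusted p under 0.05), where 0.883% of all genes were called in the same fit, and the members' median was 0.14. With the mean of the erythroid markers other than Tfrc, also chosen after seeing the data, 0 were called (7 at an unadjusted p under 0.05), against 0.657% of all genes, and the median was 0.15. Every NOD array lay above every B10 array of its state in both means, so strain and these means cannot be told apart. In bulk RNA, more cells of a type and more RNA per cell cannot be told apart either.

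**Figure D3:**
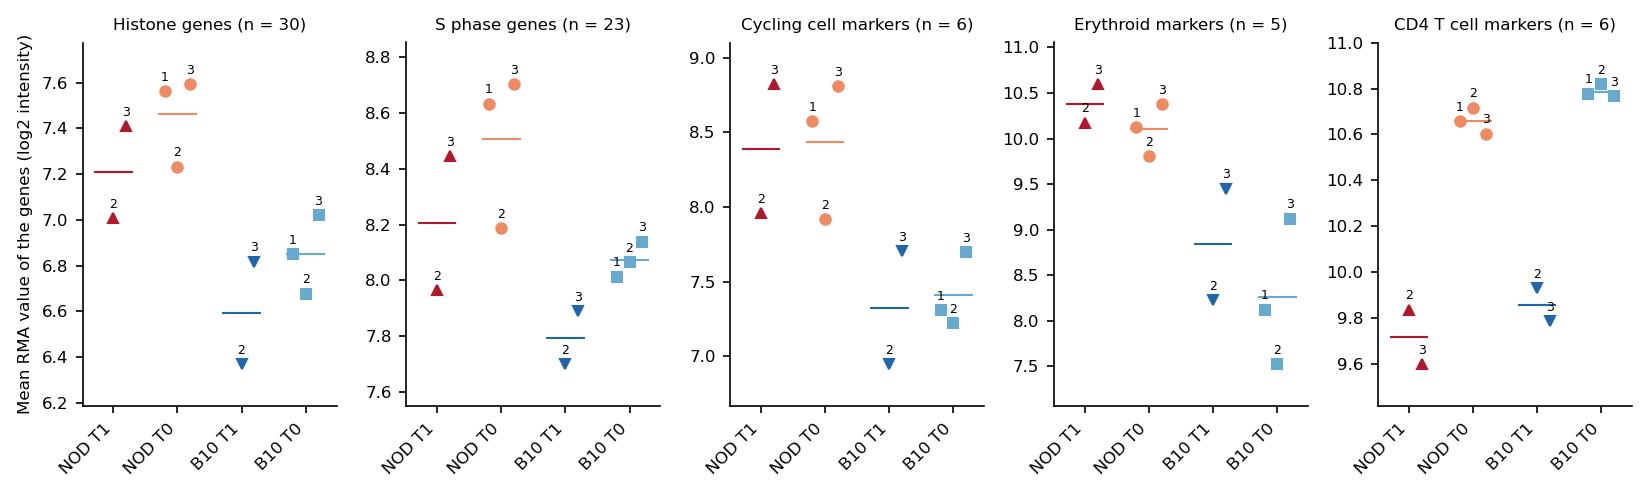
Mean RMA value (log2 intensity) of the 30 histone genes, 23 S phase genes, 6 cycling cell markers, 5 erythroid markers and 6 CD4 T cell markers on each array, with the replicate number beside each point and a line at the group mean. The axes differ between panels. The NOD points lie above the B10 points of the same state in the histone, S phase, cycling and erythroid panels, and the NOD T0 points lie below the B10 T0 points in the CD4 T cell panel.

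The strain difference was also present after stimulation, in fewer called genes. At T1, 5 of 30 members rose in NOD relative to B10 and 0 fell. Of all genes, 1.77% were called higher and 1.83% lower. At limma's unadjusted p under 0.05, 0 members were lower and 19 higher. Of all 19938 genes, 1645 were lower and 1619 higher at that p. The members' median was 0.57, against 0.01 over all genes. Differences were positive in 25 of 30 members and in 10326 of 19938 genes. Arrays did not overlap, with NOD higher, in 19 members, against 21.6% of all genes. H1f2 had 8.80 and 9.35 in NOD T1 cells, against 7.12 and 7.84 in B10 T1 cells (1.59 ± 0.29, adjusted p = 0.0102). H2bc14 had 9.31 and 10.13 in NOD T1 cells, against 7.77 and 8.76 in B10 T1 cells (1.46 ± 0.33, adjusted p = 0.0301). H2bc18 had 8.08 and 8.51 in NOD T1 cells, against 6.76 and 7.44 in B10 T1 cells (1.20 ± 0.22, adjusted p = 0.0122). In these H1 and H2B genes both NOD arrays were above both B10 arrays. H4c14 rose by 1.05 ± 0.25 (adjusted p = 0.0352) and H4c9 by 0.78 ± 0.19 (adjusted p = 0.0395). H1f1 had 10.02 and 11.04 in NOD T1 cells, against 8.17 and 9.58 in B10 T1 cells, and did not pass the test (1.65 ± 0.48, adjusted p = 0.0877).

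With 2 arrays a group at T1, an omission there leaves 1 array in the group. Omitting a T0 array changed the number of calls too. The share of all genes called in each omission is not given here. A changed number of calls therefore cannot be read as particular to histone genes. There were 0 without NOD T1 replicate 3, 0 without B10 T1 replicate 2, 13 without NOD T1 replicate 2, 8 without B10 T1 replicate 3, 3 without NOD T0 replicate 1 and 2 without B10 T0 replicate 1. The cycling marker mean was 7.96 and 8.82 in NOD T1 cells, against 6.95 and 7.70 in B10 T1 cells, and the erythroid mean was 10.17 and 10.59 in NOD T1 cells, against 8.23 and 9.45 in B10 T1 cells. With either as a covariate (Tfrc left out of the erythroid one), 0 members were called, against 0.502% of all genes with the cycling covariate and 0.527% with the erythroid one. At an unadjusted p under 0.05 there were 3 and 5 members, and the medians were 0.03 and 0.13.

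**Figure D4:**
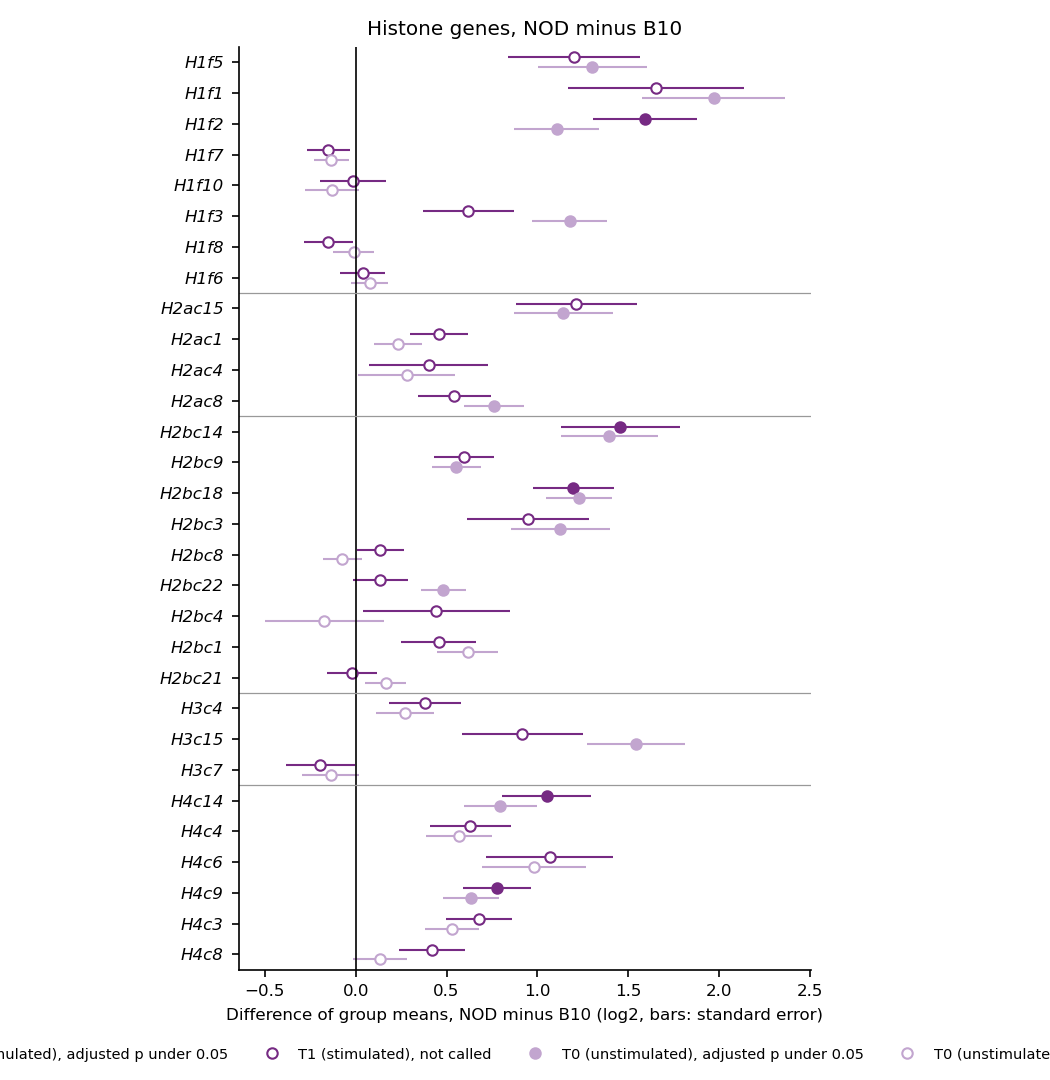
NOD minus B10 difference of each histone gene (log2, bars are limma's standard error) at T1 (dark) and T0 (light), with filled points for an adjusted p under 0.05. Filled points lie to the right of 0, 5 at T1 and 14 at T0, and the H1 genes H1f6, H1f7, H1f8 and H1f10 lie near 0.

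Stimulation for 4 hours gave few calls among the histone genes in the fit without covariates or a replicate block. With a replicate block more members were called in each strain, as given below with the share of all genes. In NOD, 1 member rose and 4 fell, where 16.1% of all genes rose and 19.5% fell. In B10, 1 rose and 2 fell, where 13.7% rose and 18.1% fell. The members' medians were -0.28 in NOD and -0.32 in B10, against 0.08 and 0.03 over all genes. Differences were negative in 22 of 30 members in each strain. Of all 19938 genes, 7829 were negative in NOD and 8926 in B10. At these backgrounds the counts of members called do not stand above the rest of the array.

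H2bc18 fell in both strains. It had 8.08 and 8.51 in NOD T1 cells, against 9.40, 8.91 and 9.03 in NOD T0 cells (-0.82 ± 0.20, adjusted p = 0.00693). In B10 it had 6.76 and 7.44 in T1 cells, against 7.99, 7.69 and 7.97 in T0 cells (-0.78 ± 0.20, adjusted p = 0.00905). No T1 array reached a T0 array of its strain. The call was lost only without replicate 2 of the stimulated group, in NOD (-0.60) and in B10 (-0.45), among 10 omissions each. Since H2bc18 is also called between strains, its comparisons share arrays.

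H3c15 fell in NOD, with 5.64 and 5.66 in T1 cells, against 6.999, 5.85 and 6.95 in T0 cells (-0.95 ± 0.30, adjusted p = 0.0274). In B10 it had 4.47 and 4.99 in T1 cells, against 4.79, 4.90 and 5.47 in T0 cells, with overlap and no call (-0.32 ± 0.30, adjusted p = 0.505). The H2B genes H2bc22 (-0.45 ± 0.14, adjusted p = 0.0237) and H2bc21 (-0.37 ± 0.12, adjusted p = 0.0336) fell in NOD. H1f2 fell in B10, with 7.12 and 7.84 in T1 cells, against 8.00, 8.03 and 8.65 in T0 cells (-0.75 ± 0.26, adjusted p = 0.0450), and had -0.26 ± 0.26 in NOD (adjusted p = 0.467). H1f7, the testis H1 outside the clusters, rose in both, by 0.34 ± 0.11 in NOD (adjusted p = 0.0273) and by 0.36 ± 0.11 in B10 (adjusted p = 0.0221). Its call in B10 was not kept in every omission of 1 array, with differences of 0.32 to 0.39. The H1f7 values were 6.45 and 6.78 in NOD T1 cells, against 6.28, 6.33 and 6.21 in NOD T0 cells. In B10 they were 6.73 and 6.80 in T1 cells, against 6.42, 6.40 and 6.41 in T0 cells.

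Array by array, the number of members called after stimulation moved too, given here without the share of all genes called in each omission. Such a change cannot be read as particular to histone genes. In NOD it was 3 without NOD T1 replicate 2, 2 without NOD T0 replicate 1 and 2 without NOD T0 replicate 3. In B10 it was 0 without B10 T1 replicate 2, 9 without B10 T1 replicate 3, 1 without B10 T0 replicate 3, 6 without NOD T1 replicate 2 and 6 without NOD T1 replicate 3. Cycling markers were called in 0 of 6 in either strain (0 at an unadjusted p under 0.05). With their mean as a covariate, 13 of 30 members were called in each strain, 1 higher and 12 lower. In the same fit 35.9% of all genes were called in NOD and 32.1% in B10, both directions together. The share of all genes called lower in that fit is not given here. B cell markers fell in 6 of 6 and monocyte markers in 6 of 6 in each strain. CD4 T cell markers fell in 4 of 6 in each strain, while Cd5 rose in NOD by 0.46. Neutrophil markers fell in 5 of 7 in NOD and in 4 of 7 in B10. Of all genes, 19.5% fell and 16.1% rose in NOD, and 18.1% fell and 13.7% rose in B10. The part of these cell type markers in the histone values was not tested.

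**Figure D5:**
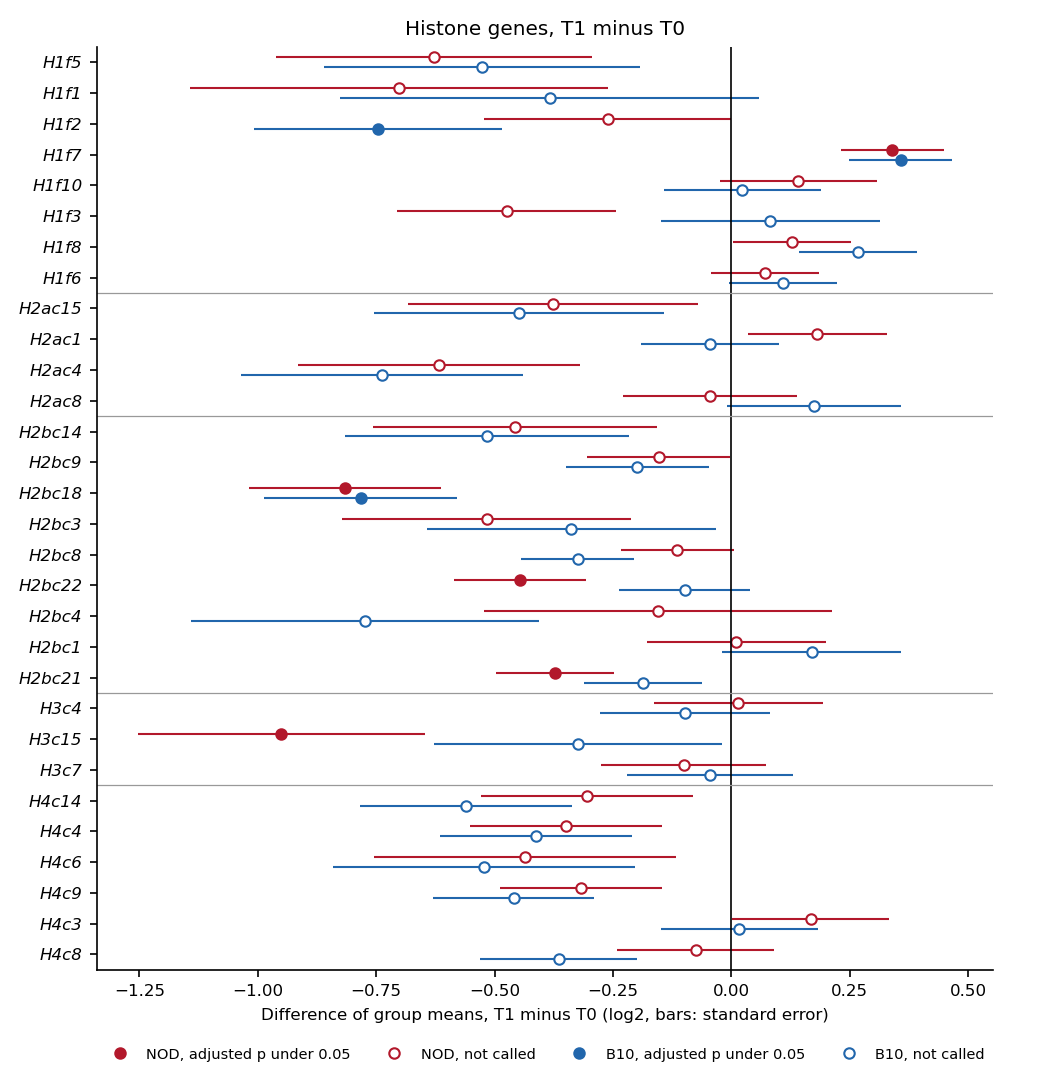
T1 minus T0 difference of each histone gene (log2, bars are limma's standard error) in NOD (red) and B10 (blue), with filled points for an adjusted p under 0.05. H2bc18 has filled points left of 0 in both strains and H1f7 has filled points right of 0 in both.

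The response to stimulation did not differ between strains past the threshold in any histone gene. The interaction was called in 0 of 30 members by limma, with 0 at an unadjusted p under 0.05, where 0.246% of all genes were called. The members' differences (NOD response minus B10 response) ran from -0.63 to 0.62, with a median of 0.05. The 3 largest were H3c15 (-0.63 ± 0.43, adjusted p = 0.688), H2bc4 (0.62 ± 0.52, adjusted p = 0.753) and H1f3 (-0.56 ± 0.33, adjusted p = 0.649), and each standard error leaves room for a response that differs in size.

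Of 23 S phase genes measured, 3 rose in NOD T0 cells, the replication factor gene Gins1 (1.02), the clamp loader subunit Rfc4 (0.76) and the primase subunit Prim1 (0.75), and 0 fell, against 3.44% of all genes called higher, with a median of 0.35. At an unadjusted p under 0.05, 15 of the 23 were higher and 0 lower, where 1721 of 19938 genes were higher. Of 8 replication-independent histone variants, 0 were called at T0 (1 at an unadjusted p under 0.05), with a median of 0.06. Of 18 histone chaperones, 0 were called at T0 (4 at an unadjusted p under 0.05). Of 15 genes of histone mRNA processing and transcription, 0 rose and 1 fell, the endonuclease gene Cpsf3 (-0.45 ± 0.09, adjusted p = 0.00967). At T1 the chaperone Asf1b rose (1.30 ± 0.31, adjusted p = 0.0397).

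Stimulation gave calls in each of these lists in both strains, against 16.1% of all genes higher and 19.5% lower in NOD and 13.7% higher and 18.1% lower in B10. Among the variants, H2az2, an H2A.Z gene, fell by 1.67 in NOD and by 1.65 in B10, and Cenpa, the centromeric H3, fell by 0.98 in NOD and by 1.15 in B10. H2az1 fell by 0.80 in NOD and by 0.46 in B10, and Macroh2a1 fell by 0.72 in NOD and by 0.59 in B10. In B10, 2 of 8 variants rose, H2aj by 0.50 and Macroh2a2 by 0.72, the second with every array under the olfactory percentile of 5.67. In NOD 0 variants were called higher (1 at an unadjusted p under 0.05). Among the chaperones, 7 of 18 rose and 2 fell in NOD and 8 rose and 2 fell in B10. The histone importer Ipo4 rose by 2.34 in NOD and 2.31 in B10, and Ubn1, a subunit of the HIRA complex, fell by 1.64 in NOD and by 1.48 in B10. Among the mRNA processing genes, Cpsf3 fell by 0.87 in NOD and by 1.00 in B10, the cap-binding gene Ncbp2 rose by 0.62 in NOD and by 0.79 in B10, and Slbp, which binds the histone stem-loop, fell by 0.39 in NOD (adjusted p = 0.0497). Of the 23 S phase genes, 6 fell in NOD and 8 in B10, with the helicase subunit Mcm7 (fell by 0.80 in NOD and by 1.02 in B10) and the replication clamp Pcna (fell by 0.61 in NOD and by 0.53 in B10) among them.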

How the data were processed

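The authors' deposited values were log2 intensities of Affymetrix mouse gene arrays, made with RMA in Affymetrix Power Tools per the submitters' processing notes, with no version or option given. RMA corrects background, brings arrays to one distribution and summarises probes. Biotinylated cRNA was made from total RNA by the standard Affymetrix protocol per the labels, and how first strands were primed is not given in the sources used here, which bears on RNAs without poly(A) tails. Of 35486 probe sets, 21789 have 1 symbol, 1621 several and 12076 none. The 1-symbol probe set with the highest mean stood for each of 19938 genes. A 4-group model was fitted to all 10 arrays with limma 3.58.1 in R 4.3.3 (eBayes, 6 residual and 6.30 prior degrees of freedom, two-sided), with Benjamini-Hochberg adjustment over all genes per contrast and a threshold of 0.05. The script was tested on simulated data. Named were members past the threshold, the 5 members of highest mean (H1f5, H1f1, H4c14, H2ac15 and H4c4), the 3 largest interactions, and up to 6 genes per list and contrast. Members, lists and tests were chosen with earlier results of these data known. Replicate numbers repeat across states and were not used as a block. Alternatives were scaling to the 75th percentile, dim genes removed, probe set choices, array weights, trend and robust moderation, arrays compared, blocks, left-out arrays and, chosen after seeing the data, marker covariates. The 10 arrays hold no replicate 1 at T1 in either strain. Figures used matplotlib 3.10.9.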

Additional observations from a re-analysis of the deposited data

How the results depend on the processing

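Counts of members called are given in this paragraph without the share of all genes called under each setting. A changed count therefore cannot be read as particular to histone genes. The 14 members higher in NOD at T0 became 9 with trend and robust moderation and 4 with every probe set tested. They became 0 with the cycling covariate and 0 with the erythroid one. The 5 at T1 became 2 with array weights, 1 with every probe set tested, 0 with only the arrays compared, 8 without both B10 arrays of replicate 3, and 0 with either covariate. For stimulation in NOD, 5 became 3 with scaling to the 75th percentile, 3 with dim genes removed, 2 with every probe set tested, 13 with the cycling covariate and 9 with the erythroid one. For stimulation in B10, 3 became 5 with dim genes removed, 6 with only the arrays compared, 8 without both B10 arrays of replicate 3 and 13 with either covariate. The scaling moved the median of all genes for stimulation in NOD to 0.21, against 0.08. Leaving out each array gave 3 to 17 calls at T0, 0 to 13 at T1, 2 to 6 for stimulation in NOD, 0 to 9 for stimulation in B10 and 0 to 0 for the interaction. The interaction gave 0 calls under every setting run. The interaction of H2bc4 turned to -0.10 without B10 T1 replicate 2, against 0.62 with all arrays, in a range of -0.10 to 1.34 over the omissions. For single named genes, 445 of 620 values kept direction and call, 174 lost the call and 1 reversed. Among these, the 58 values of the 3 interactions had no call to lose. The call was lost in 94 of 291 values at T0 and in 42 of 105 at T1. For stimulation it was lost in 24 of 103 values in NOD and in 14 of 63 in B10. The cause of these changes was not tested.

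Same-numbered arrays of T0 and T1 deviated together with r = 0.41 and 0.40 in B10, but -0.01 and 0.22 in NOD. Each T1 group has 2 arrays whose deviations mirror each other, so the values of a strain are not separate checks. Not every value passed the minimum of 0.1, so numbers were not taken as pairs. With a replicate block, calls were 12 for stimulation in B10 and 7 in NOD (block within strain), and 17 at T0 and 11 at T1 between strains (block shared by the strains). In the same order, 31.5%, 31.2%, 6.08% and 4.63% of all genes were called.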

Other observations

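Another 26 probe sets carry several histone symbols at once, 54 in all, of which 36 have no probe set of their own. They name mainly near-identical copies, so no value belongs to 1 gene. Of the 26, 2 repeat the values of another on every array, which leaves 24 distinct measurements. Tested among all probe sets of the table, 4 of the 24 rose in NOD T0 cells and 0 fell, where 1.81% of all probe sets rose. The risen ones were 3 of 6 distinct H2B probe sets and the 1 that names both H1 and H2B genes. The differences at T0 ran from 0.66 to 1.35, with a median of 1.10, and all 24 had an unadjusted p under 0.05. The share of all probe sets under that p is not given here. The 10 probe sets of H3 genes had a median of 1.11 and the 5 distinct ones of H4 genes a median of 0.99, with no call after adjustment. At T1 the median over the 24 was 1.44 with 0 called by limma (24 at an unadjusted p under 0.05). After stimulation their median was -0.43 in NOD and -0.66 in B10, with 0 called in either (0 in NOD and 11 in B10 at an unadjusted p under 0.05). These probe sets share sequence with each other and with some members, so they are not independent of them.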
